A study of Mus musculus with 4 samples.

Results

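Calcium release and uptake in cardiomyocytes was examined through 10 genes, all of them found in the deposited table of 45706 genes by matching Ensembl identifiers to mouse symbols. They are the ryanodine receptors Ryr2 and Ryr3, the inositol trisphosphate receptors Itpr1, Itpr2 and Itpr3, the calcium pump Atp2a2 with its small regulators Pln and Sln, the calcium buffer Casq2 and the exchanger Slc8a1. The genes were chosen by name for their roles and for a contrast of long and short transcripts in the same kind of cell. All 10 passed the filter on low counts. The tissue was the outflow tract, the arterial outlet of the developing heart, from mouse embryos of the C57BL/6 strain at embryonic day 12.5. Wild-type (WT) embryos were compared with Sox17eKO embryos, which lack Sox17 in endothelial cells of the aortic root through Cre recombinase driven by an Nfatc1 enhancer. The whole outflow tract was sequenced, so the libraries hold cells beyond those the Cre is named for. Each genotype had 2 libraries, each of 10 pooled hearts, and the labels do not say whether the WT embryos carried Cre or a floxed allele.

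In a heart muscle cell, calcium entering with each beat opens ryanodine receptors of the sarcoplasmic reticulum, which release stored calcium onto the myofilaments. The SERCA pump takes calcium back into the store under the restraint of phospholamban and sarcolipin, calsequestrin holds it there, and the sodium-calcium exchanger carries the rest out of the cell. Inositol trisphosphate receptors open a slower release path used by many cell types. The early embryonic heart relies heavily on calcium crossing the outer membrane, because its reticulum is still maturing.

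Levels are given as CPM, a gene's reads relative to all gene reads of its library after TMM scaling. A log2 fold change is Sox17eKO over WT from edgeR's quasi-likelihood fit, and a gene is said to have risen or fallen only where its adjusted p over all 16570 genes tested was under 0.05. Libraries held 8113463 to 21883956 reads in genes. Sox17 itself was at 6.05 and 6.83 CPM in WT and fell to 2.76 and 2.82 CPM in Sox17eKO (log2 fold change -1.19, edgeR adjusted p = 0.00574). Of uniquely placed reads, the share outside annotated exons was 20.4% and 22.2% for WT against 29.5% and 34.1% for Sox17eKO. That share moved with genotype, and its part in the changes described here was not tested. All 22 cardiomyocyte markers were detected, and their summed level without Ttn was 33660 and 35470 CPM in WT replicates 1 and 2 and 33080 and 35320 CPM in Sox17eKO replicates 1 and 2. The 12 cardiomyocyte markers at or under 4000 exonic bases (length defined below) summed to 14680 and 15790 CPM in WT and 13440 and 14020 CPM in Sox17eKO. Summed neuronal, skeletal muscle and epithelial markers overlapped between the genotypes. The 7 erythroid markers summed to 2457 and 3325 CPM in WT and 1635 and 2192 CPM in Sox17eKO. All 7 had a negative log2 fold change (median -0.61), and the embryonic globin gene Hbb-y fell. Over all genes under 2000 exonic bases, 31.3% had a positive log2 fold change and 3.06% were called lower. Of the erythroid markers, Alas2 (2403 bases) and Slc4a1 (4891) are longer. The 7 endothelial markers summed to 895 and 917 CPM in WT and 820 and 883 CPM in Sox17eKO, 6 of 7 were negative, and the endothelial receptor gene Tie1 fell. All 7 have over 4000 exonic bases. Over all genes, 53.2% were positive from 4000 to 8000 bases and 81.5% above. Of the same classes, 0.567% and 0.0388% were called lower. Hbb-y and Tie1 each passed in 2 of 4 fits with 1 library left out, and not without WT replicate 2 (edgeR adjusted p = 0.284 and 0.225) or Sox17eKO replicate 1 (0.125 and 0.130). The part of these markers in the results was not tested. In a bulk library a change in the number of cells of a type and a change in RNA per cell cannot be told apart.

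The 10 genes span a wide range of sizes. Exonic length here is the union of all annotated exons in GENCODE M21 on GRCm38, the assembly behind mm10. Ryr2 (ENSMUSG00000021313, chr13:11553102-12106945, minus strand) has 28790 exonic bases in a gene of 553844 bases, and its longest transcript has 16814. Ryr3 (chr2:112631355-113217096, minus strand) has 18977 exonic bases, Slc8a1 (chr17:81373105-81738377, minus strand) 18807, Itpr1 (chr6:108213096-108551109, plus strand) 18319, Itpr2 (chr6:146108299-146502223, minus strand) 14802 and Itpr3 (chr17:27057304-27122223, plus strand) 9019. Slc8a1 owes its length to noncoding exon sequence, since its longest coding sequence is 2913 bases. Atp2a2 (chr5:122453513-122502225, minus strand) is intermediate with 6081 exonic bases. The short genes are Pln (chr10:53337667-53345987, plus strand) with 2759 exonic bases, Casq2 (chr3:102086415-102146514, plus strand) with 2736 and Sln (chr9:53850164-53854560, plus strand) with 1318.

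Pln and Sln encode membrane micropeptides that bind the SERCA pump and slow it, and their whole reading frames are short enough to set beside the large channels. Each lies within 1 coding exon, at chr10:53343864-53344022 for Pln (159 bases) and chr9:53853473-53853568 for Sln (96 bases), both on the plus strand. The longest coding sequence of Ryr2, by comparison, has 14901 bases. The reading frames are from GENCODE M21, with the start and stop codons in capitals.
Pln: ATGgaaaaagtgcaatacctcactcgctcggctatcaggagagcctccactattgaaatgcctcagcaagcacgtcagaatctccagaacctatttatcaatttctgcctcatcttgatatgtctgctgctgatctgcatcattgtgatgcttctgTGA
Sln: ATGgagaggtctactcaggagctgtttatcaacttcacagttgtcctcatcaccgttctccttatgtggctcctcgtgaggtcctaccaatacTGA

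Windows of 300 bases around the transcription start (250 before, 50 after; RefSeq, GRCm38.p6) were given for 6 of the 10 genes. Shown are those of Ryr2 (chr13:12106896-12107195, minus strand) and Slc8a1 (chr17:81738338-81738637, minus strand), which rose in Sox17eKO, and of Casq2 (chr3:102086165-102086464, plus strand), a partner of Ryr2 in the same store that was not called. Capitals mark each match on either strand to the SOX core ACAAT, the GATA motif AGATAA, the E-box CANNTG, the MEF2 core CTAAAAATA or the TATA box TATAAA.
Ryr2: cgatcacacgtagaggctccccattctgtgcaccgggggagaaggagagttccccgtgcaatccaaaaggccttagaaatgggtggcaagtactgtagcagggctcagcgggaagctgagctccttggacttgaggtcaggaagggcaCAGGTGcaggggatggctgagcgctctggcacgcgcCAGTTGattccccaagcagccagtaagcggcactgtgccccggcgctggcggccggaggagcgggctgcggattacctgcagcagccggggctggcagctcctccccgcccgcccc
Slc8a1: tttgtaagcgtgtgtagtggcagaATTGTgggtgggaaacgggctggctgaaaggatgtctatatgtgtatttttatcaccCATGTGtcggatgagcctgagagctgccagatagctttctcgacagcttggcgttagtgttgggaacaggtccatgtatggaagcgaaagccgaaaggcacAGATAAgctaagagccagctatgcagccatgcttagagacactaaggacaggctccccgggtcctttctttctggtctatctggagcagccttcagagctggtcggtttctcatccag
Casq2: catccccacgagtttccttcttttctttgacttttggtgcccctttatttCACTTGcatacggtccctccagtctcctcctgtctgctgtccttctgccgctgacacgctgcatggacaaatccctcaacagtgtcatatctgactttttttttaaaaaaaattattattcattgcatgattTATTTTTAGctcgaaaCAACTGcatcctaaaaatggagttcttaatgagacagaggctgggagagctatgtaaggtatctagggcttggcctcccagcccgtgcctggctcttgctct
Ryr2 has 2 E-boxes and no match to the other motifs, in a window of 65.3% GC. Slc8a1 has 1 SOX core, 1 GATA motif and 1 E-box, and is the 1 gene of the 6 with a SOX core, which 31% of 32851 windows of the same length hold. Casq2 has 2 E-boxes and 1 MEF2 core, a motif found in 0.517% of windows, where the E-box is found in 72.3% and AGATAA in 11.2%. Pln, whose window is not printed, has 1 GATA motif, 2 E-boxes and 1 TATA box (the last in 13.6% of windows). A match describes letters in a window and no binding was measured.

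Per kilobase of exonic length, the SERCA regulator Pln had the highest WT level, 296 ± 20.8 CPM per kb (mean ± SD, n = 2), followed by the pump Atp2a2 at 151 ± 2.25, the exchanger Slc8a1 at 53.4 ± 3.27 and Casq2 at 45.7 ± 0.875. Ryr2 followed at 13.4 ± 1.03 CPM per kb, Itpr1 at 9.16 ± 0.361 and Itpr2 at 5.97 ± 0.455. Sln, Itpr3 and Ryr3 were lowest, at 4.06 ± 0.501, 3.06 ± 0.270 and 1.78 ± 0.333 CPM per kb. In WT no 2 neighbours in this order overlapped between libraries. In Sox17eKO the first 7 genes kept their order, and Ryr3 (3.41 ± 0.288), Sln (3.12 ± 0.257) and Itpr3 (2.91 ± 0.316) overlapped their neighbours. With the longest transcript in place of the exon union the WT order was the same and Ryr2 stood at 22.9 ± 1.77 CPM per kb. For Slc8a1 that swap changes little, since its longest transcript has 18464 bases and its exon union 18807. The transcript with its longest coding sequence has 3180 bases. The order with that length was not computed, so the place of Slc8a1 depends on the length chosen. The plot of levels in each library shows the same values before division by length.

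**Figure D1:**
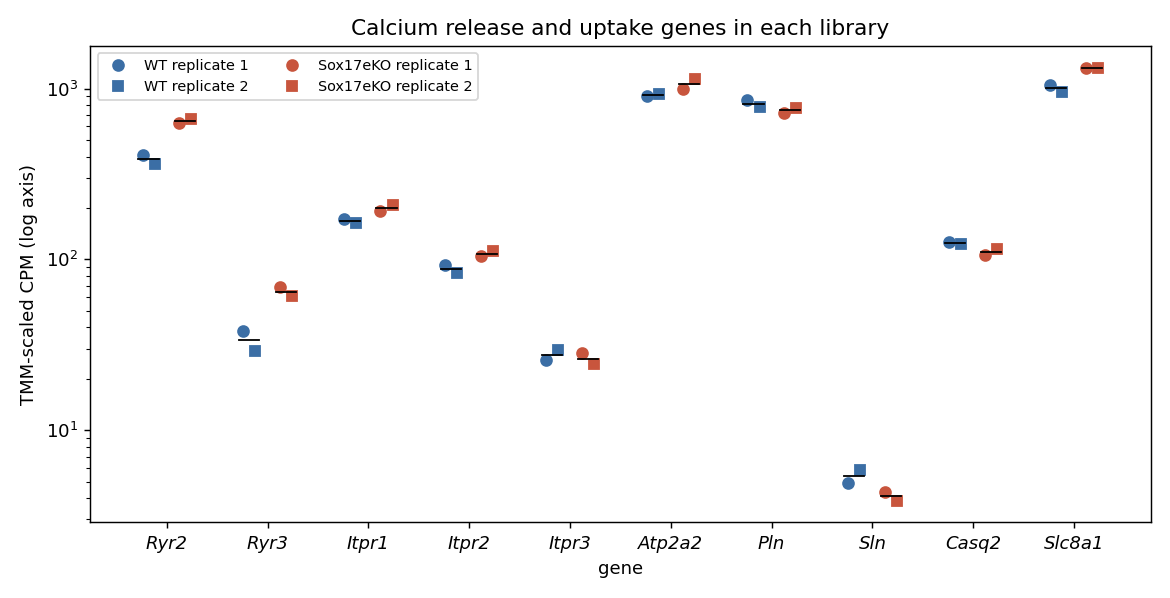
TMM-scaled CPM (log axis) of the 10 genes in the 2 WT (blue) and 2 Sox17eKO (red) libraries, with circles for replicate 1, squares for replicate 2 and a line at each genotype's mean. Ryr2 rises from 406 and 364 CPM to 627 and 664 and Ryr3 from 38.2 and 29.2 to 68.5 and 60.8, whereas the libraries of Itpr3 overlap.

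Of the 10 genes, Ryr2, Ryr3, Itpr2 and Slc8a1 rose in Sox17eKO, none fell, and 6 did not pass. Over all 16570 genes, 4.13% were called higher, 1.22% lower and 5.35% in either direction. Among the 2577 genes tested with over 8000 exonic bases, the class of all 4 genes that rose, 14.8% were called higher and 0.0388% lower. The median log2 fold change of the 10 genes was 0.24, against -0.01 over all genes. It was 0.16 over genes with over 8000 exonic bases, the class of most of the 10. The genotypes did not overlap for 9 of the 10 genes, 6 of them higher and 3 lower in Sox17eKO. Of all genes tested, 52.8% showed no overlap (26.5% higher and 26.2% lower), so that count says little by itself.

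Ryr2, the main calcium release channel of heart muscle, was at 406 and 364 CPM in WT replicates 1 and 2 and at 627 and 664 CPM in Sox17eKO replicates 1 and 2. Both Sox17eKO libraries lay well above both WT libraries. Its log2 fold change, 0.74, had a standard error of 0.082 and a 95% interval of 0.57 to 0.92 (edgeR adjusted p = 5.62e-05), a fitted 1.67-fold rise. It ranked 9 by p over all genes tested, and its call held with any 1 library left out, with log2 fold changes of 0.67 to 0.82. Of the 2577 genes with over 8000 exonic bases, a class with no upper limit, 37 had a log2 fold change as large or larger.

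Ryr3, a ryanodine receptor better known from brain, smooth muscle and developing skeletal muscle, had the largest rise of the 10. It was at 38.2 and 29.2 CPM in WT replicates 1 and 2 and at 68.5 and 60.8 CPM in Sox17eKO replicates 1 and 2, resting on 492, 231, 994 and 1337 reads. The lowest Sox17eKO library was above the highest WT library. Its log2 fold change, 0.92, had a standard error of 0.11 and an interval of 0.69 to 1.16 (edgeR adjusted p = 0.00019), and it ranged from 0.76 to 1.14 with 1 library left out, called each time. The ratio of Ryr3 to Ryr2 reads within a library overlapped between the genotypes (log2 -3.41 and -3.64 in WT, -3.19 and -3.45 in Sox17eKO). Aven, an opposite-strand gene that overlaps the 3' end of Ryr3, was at 10.4 and 11.6 CPM in WT and at 10.8 and 10.6 CPM in Sox17eKO (log2 fold change -0.03, edgeR adjusted p = 0.933). Neuronal markers summed to 41.6 and 43.4 CPM in WT and 34.3 and 42.6 CPM in Sox17eKO, with 0 of 8 tested called. Skeletal muscle markers summed to 8.97 to 10.4 CPM in the 4 libraries, with 0 of 3 tested called. Smooth muscle markers summed to 1958 and 1996 CPM in WT and 1817 and 1773 CPM in Sox17eKO, and of 7 tested Myocd, a smooth muscle and heart transcription coactivator, rose (log2 fold change 0.31, edgeR adjusted p = 0.0423) and Cnn1, calponin, fell (-0.35, 0.0239). Neither passed without WT replicate 2 (edgeR adjusted p = 0.0680 for Myocd and 0.292 for Cnn1) or without Sox17eKO replicate 2 (0.219 and 0.0763), nor did Myocd without WT replicate 1 (0.211). The part of these cell types in the Ryr3 rise was not tested. The third ryanodine receptor, Ryr1 of skeletal muscle, was at 1.03 to 2.40 CPM in the 4 libraries and did not pass (log2 fold change -0.07, standard error 0.42).

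The inositol trisphosphate receptors differed in their values. Itpr2, the type enriched in cardiomyocytes, was at 93.1 and 83.6 CPM in WT replicates 1 and 2 and at 105 and 111 CPM in Sox17eKO replicates 1 and 2. It rose by a smaller step than the ryanodine receptors (log2 fold change 0.29, standard error 0.081, interval 0.12 to 0.46, edgeR adjusted p = 0.0436). Itpr1, the widely expressed type prominent in brain and smooth muscle, was at 172 and 163 CPM in WT and at 192 and 209 CPM in Sox17eKO. The groups did not overlap, but it did not pass (log2 fold change 0.26, interval 0.09 to 0.42, edgeR adjusted p = 0.0612). The call of Itpr2 and its absence for Itpr1 do not set the pair apart, because their read ratio within a library overlapped between the genotypes (log2 -0.89 and -0.96 in WT, -0.87 and -0.91 in Sox17eKO). Itpr3, best known from epithelia, was at 25.9 and 29.4 CPM in WT and at 28.3 and 24.2 CPM in Sox17eKO, so the genotypes overlapped (log2 fold change -0.07, interval -0.32 to 0.17, edgeR adjusted p = 0.787). Without WT replicate 2, without Sox17eKO replicate 1 or without Sox17eKO replicate 2, Itpr2 did not pass (edgeR adjusted p = 0.327, 0.0615 and 0.172).

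Among the 5 release channels, per exonic base, Ryr2 made up 40.1% ± 0.801 of the summed WT level (mean ± SD, n = 2) and 47.7% ± 0.683 of the summed Sox17eKO level. The Itpr1 share was 27.5% ± 0.494 in WT and 23.3% ± 0.758 in Sox17eKO, and the Itpr2 share 17.9% ± 0.338 and 15.6% ± 0.197. Ryr3 had 5.31% ± 0.694 and 7.26% ± 0.803, and Itpr3 9.23% ± 1.34 and 6.21% ± 0.834. None of the 5 shares overlapped between the genotypes, which with 2 libraries a side cannot reach a two-sided exact permutation p under 0.333. In level, 52.8% of all genes tested showed no overlap. The shares are parts of the same total, so they move together and a smaller share is not a lower level. Itpr1 and Itpr2 had smaller shares in Sox17eKO but positive log2 fold changes, 0.26 and 0.29. Taken per base of the longest transcript, the Ryr2 share was 43.4% ± 0.760 and 51.1% ± 0.411. Ryr2 is the longest of the 5, and division by length leaves in the relation between genotype difference and length described below. Shares with that trend removed were not computed. With it removed, the log2 fold change was 0.33 for Ryr2 and -0.040 for Itpr1.

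On the side of uptake and extrusion, Slc8a1, the sodium-calcium exchanger NCX1, was the 1 gene that rose. It was at 1047 and 960 CPM in WT replicates 1 and 2 and at 1328 and 1318 CPM in Sox17eKO replicates 1 and 2. The Sox17eKO libraries were close to each other and above both WT libraries (log2 fold change 0.40, standard error 0.082, interval 0.23 to 0.57, edgeR adjusted p = 0.00861). It did not pass when WT replicate 2 (edgeR adjusted p = 0.0903) or Sox17eKO replicate 1 (0.0551) was left out. Atp2a2, the SERCA2 pump that refills the store, was at 910 and 929 CPM in WT and at 998 and 1141 CPM in Sox17eKO. Its groups did not overlap, and it did not pass (log2 fold change 0.22, interval 0.04 to 0.40, edgeR adjusted p = 0.142). With 1 library left out it ran from 0.12 without Sox17eKO replicate 2 to 0.31 without Sox17eKO replicate 1.

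The short partners of the same store were lower in fitted level, and none of the 3 passed. Pln, the phospholamban gene, was at 858 and 777 CPM in WT replicates 1 and 2 and at 724 and 773 CPM in Sox17eKO replicates 1 and 2, so the nearest libraries of the 2 genotypes almost touched (log2 fold change -0.13, interval -0.30 to 0.05, edgeR adjusted p = 0.396). The Pln value ran from -0.20 without WT replicate 2 to -0.056 without WT replicate 1. Casq2, the cardiac calsequestrin, was at 127 and 123 CPM in WT and at 106 and 114 CPM in Sox17eKO (log2 fold change -0.18, interval -0.34 to -0.02, edgeR adjusted p = 0.175). Sln, the sarcolipin gene of atrial and skeletal muscle, was at 4.89 and 5.82 CPM in WT and 4.34 and 3.87 CPM in Sox17eKO, on 63, 46, 63 and 85 reads. Its interval was the widest of the 10, -0.85 to 0.10, and its log2 fold change was -0.37 (edgeR adjusted p = 0.364). Of 8 atrial markers Nppa fell and 7 did not pass, and Nppa itself passed in 1 of 4 fits with 1 library left out (without WT replicate 1). Their summed level was 3910 and 4342 CPM in WT and 3533 and 3440 CPM in Sox17eKO, and its part in the Sln value was not tested. Myl4 and Myl7, which are also on the cardiomyocyte list, had WT means of 2200 and 1142 CPM. The atrial sum is therefore not a measure of atrial cells alone. The 6 ventricular markers, 0 of them called, were also lower in sum, at 5485 and 5720 CPM in WT and 4701 and 5051 CPM in Sox17eKO. Pln lies inside the opposite-strand gene Cep85l (log2 fold change 0.17, edgeR adjusted p = 0.517), which held 115 to 401 reads per library against 6140 to 16993 for Pln, and the strand setting of the counting is not given in the sources used here.

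**Figure D2:**
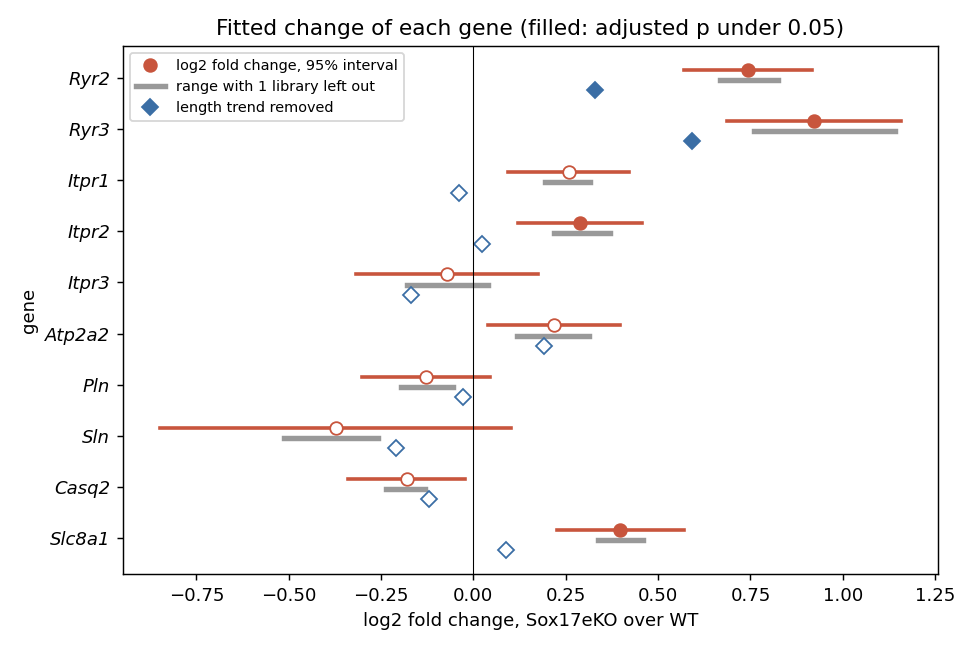
Log2 fold change (Sox17eKO over WT) of each gene with its 95% interval (red circles), its range with 1 library left out (grey bars) and its value with the length trend removed (blue diamonds), filled where the adjusted p was under 0.05. Ryr2 and Ryr3 are filled in both fits, at 0.74 and 0.92 with the trend kept and 0.33 and 0.59 with the trend removed.

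Across the 10 genes, log2 fold change and log2 exonic length had a Pearson r of 0.87 and a Spearman rho of 0.96. These values are a description, since all 10 genes share the same 4 libraries. The genes were also chosen for a contrast of long and short transcripts, with earlier results of these data known. The values are therefore no test of a relation to length. Of the 7 genes over 4000 exonic bases, 6 had a positive log2 fold change and 4 rose, with a median of 0.29. The 3 genes at or under 4000 bases were all negative, with a median of -0.18. Over the whole table, which was not chosen by length, the direction was the same and the coefficients were smaller. The median log2 fold change was -0.13 over 3787 genes under 2000 bases, -0.06 from 2000 to 4000, 0.02 from 4000 to 8000 and 0.16 over 8000, where 81.5% of genes were positive. Genes called higher made up 1.58%, 2.10%, 2.53% and 14.8% of these classes in the same order, and genes called lower 3.06%, 1.13%, 0.567% and 0.0388%. Across all 16499 tested genes with a length, r was 0.18 and rho 0.35.

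Set beside genes of their own length class, the members stood in different places. Ryr2 was at the 98.6th percentile of log2 fold change and Ryr3 at the 99.3rd percentile of genes over 8000 bases, and Slc8a1 at the 88.6th. That class has no upper limit and takes in genes far shorter than Ryr2 (28790 bases) or Ryr3 (18977). Its percentiles therefore do not rank these 2 genes among genes of like length. Itpr2 and Itpr1, at percentiles 75.2 and 70.5, lay nearer the middle of the class, and Itpr3 was low in it at 9.35. Atp2a2 stood at percentile 83.3 of genes from 4000 to 8000 bases. The short genes Pln and Casq2 were at percentiles 34.7 and 22.7 of genes from 2000 to 4000 bases, and Sln at 12.9 of those under 2000. The plot of change against length places each gene on this background.

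**Figure D3:**
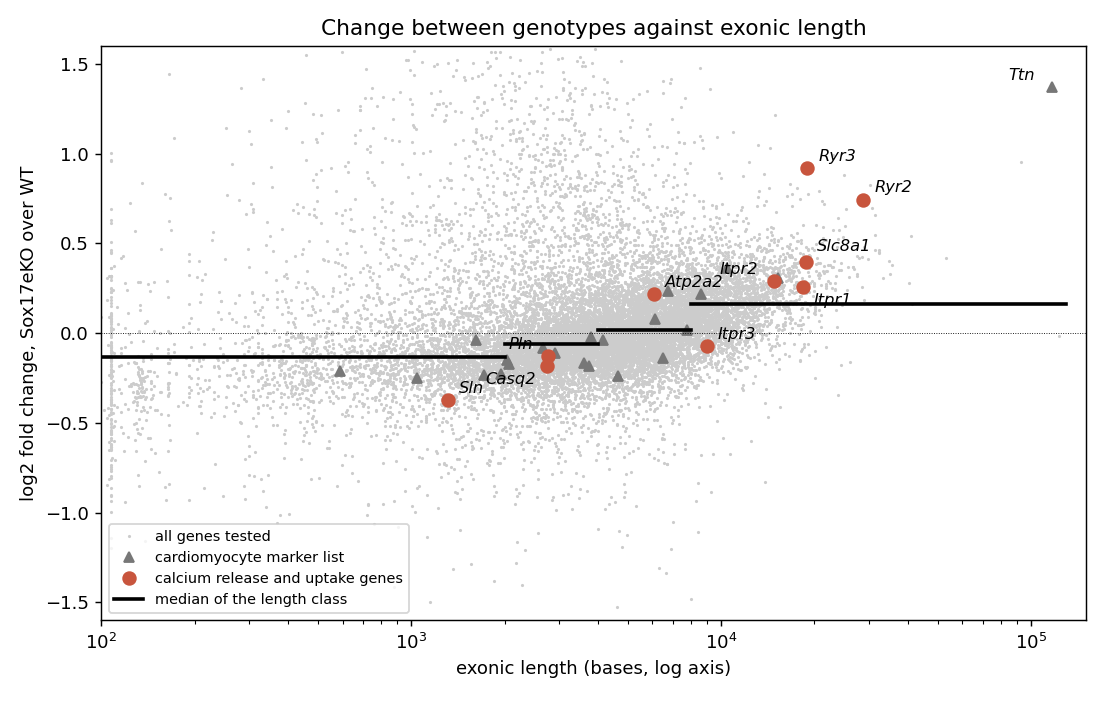
Log2 fold change (Sox17eKO over WT) against exonic length (log axis) for genes tested with a log2 fold change within the axis limits (grey), the cardiomyocyte marker list (triangles) and the 10 calcium genes (red), with a black line at the median of each length class. Ryr2 and Ryr3 lie above the class median of 0.16, Slc8a1 above it at 0.40, and the short genes Pln, Casq2 and Sln below 0.

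When each library's trend with exonic length and gene span was fitted by smooth curves and taken out, over 13361 protein-coding genes, Ryr2 and Ryr3 still passed. Among those genes 5.61% were called in either direction with the trend kept and 1.16% with it removed. The log2 fold changes became 0.33 for Ryr2 (edgeR adjusted p = 0.00867) and 0.59 for Ryr3 (0.00102). Itpr2 and Slc8a1 no longer passed, with log2 fold changes of 0.023 and 0.090 (edgeR adjusted p = 0.933 and 0.574). The log2 fold change of Itpr1, not called with the trend kept either, was -0.040. Atp2a2 moved little, to 0.19 (0.182), and the short genes stayed negative at -0.03 for Pln, -0.12 for Casq2 and -0.21 for Sln. In that fit 0.771% of genes were called higher, against 4.49% in the fit of the same genes with the trend kept. The step takes out any true genotype difference that follows transcript length as well.

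Ratios of reads within a library do not depend on how libraries are scaled. Relative to Atp2a2, Ryr2 had log2 ratios of -1.16 and -1.35 in WT replicates 1 and 2 and of -0.67 and -0.78 in Sox17eKO replicates 1 and 2, a difference of 0.53. Ryr3 differed by 0.74 and Slc8a1 by 0.19, while Pln, Casq2 and Sln differed by -0.34, -0.40 and -0.59. The genotypes did not overlap for these 6 genes or for Itpr3 (-0.29), and each had a two-sided exact permutation p of 0.333, the smallest that 2 against 2 libraries allow. The share of all genes without overlap in this ratio was not computed, and in level it was 52.8%. For Slc8a1 the nearest libraries almost touched (0.203 in WT replicate 1, 0.208 in Sox17eKO replicate 2). The same held for Itpr3 (-5.134 in WT replicate 1, -5.141 in Sox17eKO replicate 1). Relative to Pln or Casq2, Itpr3 overlapped between the genotypes (differences of 0.052 and 0.11). With 1 library left out, the Ryr3 difference ran from 0.53 without WT replicate 2 to 0.94 without WT replicate 1. That of Slc8a1 ran from 0.083 without Sox17eKO replicate 1 (0.11 without WT replicate 2) to 0.29 without Sox17eKO replicate 2. That of Itpr3 ran from -0.50 without Sox17eKO replicate 1 to -0.082 without Sox17eKO replicate 2. These ratios still carry the relation to transcript length: with the length trend removed, the Ryr2 difference was 0.14 and that of Slc8a1 -0.10. Itpr1 and Itpr2 overlapped between the genotypes in their ratio to Atp2a2 (differences of 0.04 and 0.08, exact permutation p = 0.667 for each). Relative to the short gene Pln, the Ryr2 log2 ratio was -1.08 and -1.09 in WT and -0.21 and -0.22 in Sox17eKO, with little spread within either genotype. The short pair Casq2 and Pln kept a log2 ratio of -2.76 and -2.66 in WT and -2.77 and -2.76 in Sox17eKO, which overlapped. Relative to Itpr1, another long gene, Ryr2 differed by 0.49 (1.24 and 1.16 in WT, 1.70 and 1.67 in Sox17eKO).

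**Figure D4:**
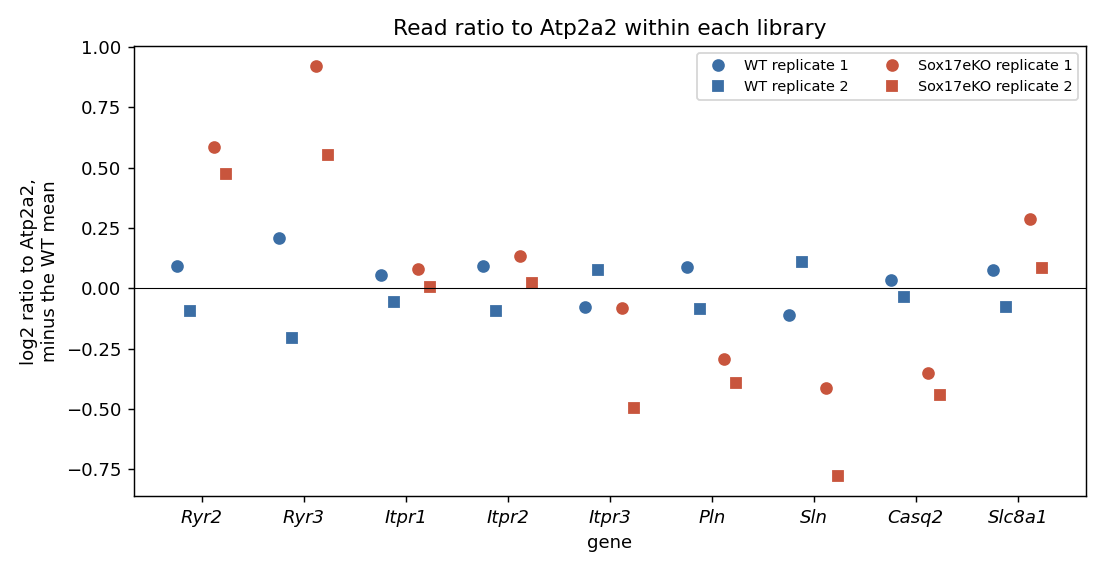
Log2 ratio of each gene's reads to Atp2a2 reads in the same library, with the WT mean of that ratio subtracted, for WT (blue) and Sox17eKO (red) libraries. Ryr2 and Ryr3 lie above WT by 0.53 and 0.74, Pln, Casq2 and Sln lie below it, and Itpr1 and Itpr2 overlap with WT.

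The same contrast of long and short genes was seen in the cardiomyocyte marker list of 22 genes. Ttn, which encodes titin and is the longest at 116825 exonic bases, rose by 1.37 on the log2 scale (edgeR adjusted p = 3.80e-06), and the ratio of Ryr2 to Ttn reads was lower in Sox17eKO (log2 -4.32 and -4.16 in WT, -4.95 and -4.79 in Sox17eKO). The sarcomere scaffold genes Myom1 (0.36) and Nebl (0.31) rose too, with 10459 and 15235 exonic bases. With the length trend removed Ttn still passed, at 0.74 (edgeR adjusted p = 8.85e-09). Myom1 (0.22) and Nebl (0.037) did not (edgeR adjusted p = 0.0923 and 0.871). None of the 12 markers at or under 4000 bases passed, and all 12 had a negative log2 fold change (median -0.17). The 12 summed to 14680 and 15790 CPM in WT and 13440 and 14020 CPM in Sox17eKO. Over all genes, 31.3% under 2000 bases and 37.4% from 2000 to 4000 were positive, and 14.8% over 8000 were called higher. Nothing particular to cardiomyocytes is read from these signs and calls. Across the 22 markers, log2 fold change and log2 exonic length had an r of 0.88, and of 0.76 without Ttn. Myom1 did not pass without WT replicate 2 or Sox17eKO replicate 2 (edgeR adjusted p = 0.122 and 0.0751), nor Nebl without WT replicate 2, Sox17eKO replicate 1 or Sox17eKO replicate 2 (0.312, 0.118 and 0.106).

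Among 60 tested genes of 7 wider calcium lists, 4 rose and 3 fell, beside 4.13% higher and 1.22% lower over all genes. All 4 that rose had over 4000 exonic bases (of 38 such genes) and all 3 that fell had at most 4000 (of 22). Over all genes the share called higher was 2.53% from 4000 to 8000 bases and 14.8% above, and the share called lower 3.06% under 2000 and 1.13% from 2000 to 4000, and nothing particular to the lists is read from these counts. The median log2 fold change was 0.04 in the long genes and -0.16 in the short ones. None of 14 genes of the junctional release complex passed (median -0.06). That list holds triadin (Trdn, 0.07), which anchors calsequestrin to the release channel, junctin's locus Asph (0.14), the membrane tether Jph2 (-0.08) and the RYR2-binding protein Fkbp1b (-0.21), and S100a1 (-0.23, edgeR adjusted p = 0.159) had its smallest p. None of the 3 tested SERCA family and regulator genes passed, with Ppp1r1a (-0.19, edgeR adjusted p = 0.404) the lowest in p.

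Of 7 genes for calmodulin and its kinases, 2 rose and 2 fell. Camk2a rose from 32.4 ± 1.21 to 43.8 ± 6.70 CPM (log2 fold change 0.44, edgeR adjusted p = 0.0239) and Camk2d, the main cardiac calmodulin kinase, from 141 ± 10.4 to 171 ± 5.56 CPM (0.28, 0.0471). The calmodulin genes Calm2 and Calm3 fell, with log2 fold changes of -0.27 and -0.29 (edgeR adjusted p = 0.0436 and 0.0473). Atp2b1, a plasma membrane calcium pump, was the 1 of 4 extrusion genes that rose (0.31, edgeR adjusted p = 0.0339). Plce1, a phospholipase that makes inositol trisphosphate, was the 1 of 13 genes of that pathway that rose (0.27, 0.0479). Smdt1, a subunit of the mitochondrial calcium uniporter, was the 1 of 9 mitochondrial genes that fell (-0.36, 0.0195). None of 10 genes of store refilling and lumenal calcium binding passed, and all 10 were negative (median -0.03), with Rcn3 lowest in p (-0.17, edgeR adjusted p = 0.236). With 1 library left out, Calm3 and Smdt1 passed in 2 of 4 fits (without WT replicate 1 and without Sox17eKO replicate 2), Camk2d and Atp2b1 in 1 (without WT replicate 1), Camk2a in 1 (without Sox17eKO replicate 1) and Calm2 and Plce1 in 0. None of these 7 calls held without WT replicate 2 (edgeR adjusted p from 0.0884 for Camk2a to 0.353 for Camk2d) or with the length trend removed (0.0698 for Camk2a to 0.994 for Plce1).

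**Figure D5:**
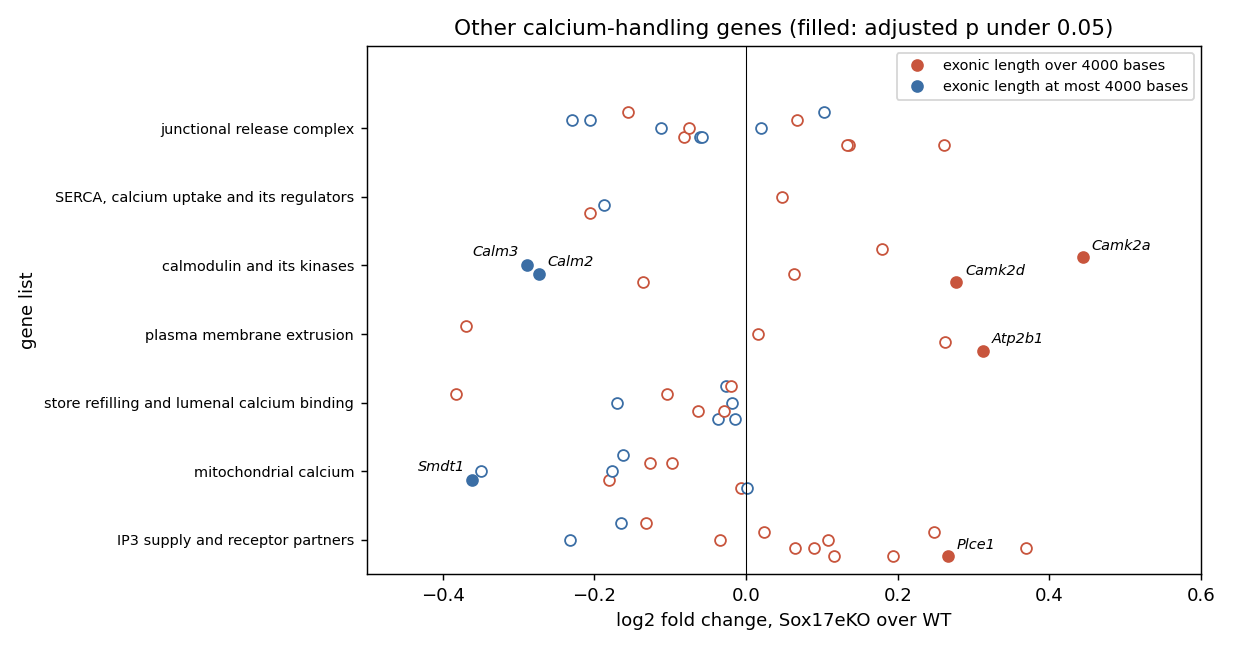
Log2 fold change (Sox17eKO over WT) of 60 tested genes in 7 wider calcium lists, red for exonic length over 4000 bases and blue for at most 4000, filled where the adjusted p was under 0.05. The 4 filled genes above 0 are long (Camk2a, Camk2d, Atp2b1, Plce1) and the 3 below 0 are short (Calm2, Calm3, Smdt1).

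Across the 4 libraries, the genes whose centred log2 CPM lay closest to that of Ryr2, by Euclidean distance among 9593 protein-coding genes averaging at least 10 CPM, were Zbtb20 (0.0511), Dgkh (0.0645), Pcdhgb4 (0.0908), Myh7b (0.0929) and Macf1 (0.126). Zbtb20, Dgkh and Macf1 have 30730, 16975 and 31402 exonic bases, and Pcdhgb4 and Myh7b have 5812 and 6634. Their log2 fold changes ran from 0.66 to 0.71, and with 4 libraries such a likeness describes little beyond the difference between genotypes. With the length trend removed, Myh7b, a myosin heavy chain gene of muscle, had 0.68, Pcdhgb4 0.65, Dgkh 0.47, Zbtb20 0.26 and Macf1 0.26, and of the 5 Myh7b, Pcdhgb4 and Macf1 passed (edgeR adjusted p = 3.72e-05, 0.00713 and 0.0369).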

How the data were processed

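RNA was measured in 4 libraries, 2 WT and 2 Sox17eKO, each from 10 pooled outflow tracts (TRIzol extraction and a strand-specific Illumina kit, per the labels' protocols). Raw counts were deposited by the authors per Ensembl gene. TopHat2, HTSeq and mm10 are named in the submitters' processing notes, and tool versions, annotation release and strand setting are not given in the sources used here. Of 45706 genes, 45143 matched a symbol in GENCODE M21, which may differ from the authors' release. The HTSeq summary lines were left out of library sizes (reads in no feature 20.4% to 34.1% and ambiguous reads 3.38% to 6.22% of uniquely placed reads).

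Groups came from sample titles. The test was edgeR 4.0.16's robust quasi-likelihood fit in R 4.3.3 (TMM, filterByExpr, genotype as the only term), adjusted by Benjamini-Hochberg over 16570 genes. Standard errors were derived as |log2 fold change|/√F, and 95% intervals use the moderated degrees of freedom. Each genotype had only 2 pools. A p-value from the fit sets the genotype difference against a spread between pools that borrows from all genes tested. Spread between embryos within a pool was not measured. Within-library ratios were compared by a two-sided exact permutation test. Counts of 0 did not occur among the 10 genes, and counting error is part of the fit. The genes and lists were chosen with earlier results of these data known, so no p was adjusted over a list. All 10 genes, Sox17, Ttn, up to 4 called genes per list and direction (or the smallest p) and the 5 nearest patterns to Ryr2 were named by rule, and Aven, Cep85l, Ryr1, Trdn, Asph, Jph2, Fkbp1b, Nppa, Hbb-y, Tie1, Myocd and Cnn1 were named after their values were seen. Alternatives used DESeq2 1.42.0, limma-voom 3.58.1 and, for trends, mgcv 1.9.3. The fit was tested on simulated data, in which 4.88% of 41 genes changed 1.25-fold and 63.3% of 60 changed 1.5-fold were called. Of 47 genes changed 2-fold, 85.1% were called. A gene that did not pass may therefore still differ by a small step. Replicate libraries differed beyond counting noise: chi-square over its degrees of freedom was 4.77 between the WT libraries and 6.01 between the Sox17eKO libraries.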

Additional observations from a re-analysis of the deposited data

How the results depend on the processing

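The Ryr2 and Ryr3 rises kept their direction and passed in every alternative run. The number of genes called was 886 of 16570 as reported and 1364 without a filter on low counts. Of 13361 protein-coding genes, 749 were called with the trend kept, 155 with the length trend removed and 268 with length and GC trends removed. DESeq2 called 390 of the 5647 genes it gave an adjusted p. The count ranged from 192 (without WT replicate 2) to 1219 (without WT replicate 1) with 1 library left out. Of the 10 genes, 4 were called as reported and 2 (Ryr2 and Ryr3) with the length trend or the length and GC trends removed, and 2 to 4 with 1 library left out. Itpr1 passed with scaling by library size only (0.29), without the filter (0.26) and among protein-coding genes only (0.27), and was -0.040 with the length trend removed and -0.038 when GC was also fitted. Itpr2 did not pass without the robust option (0.29), with DESeq2 (0.29) or with the length trend removed (0.023, and 0.023 with GC), and Slc8a1 had 0.090 and 0.081 with those trends removed. With 1 library left out, log2 fold changes ranged from 0.22 to 0.37 for Itpr2, 0.34 to 0.46 for Slc8a1 and -0.18 to 0.040 for Itpr3, which was positive without WT replicate 2 (0.015) and without Sox17eKO replicate 2 (0.040). DESeq2 gave no adjusted p for Itpr3 or Sln. The causes were not tested.

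With the replicate block the same comparison called 1684 genes and Itpr1 passed (0.26, edgeR adjusted p = 0.0198), and no call of the 10 genes was lost. The labels do not say that a number marks a shared litter or day, and same-numbered libraries deviated with a correlation of -0.03, so the numbers were not treated as pairs.

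Differences between genotypes in the ratio to Atp2a2 moved when Pln and then Casq2 was the denominator, by construction: 0.87 and 0.93 for Ryr2, 1.08 and 1.13 for Ryr3, 0.38 and 0.44 for Itpr1, 0.42 and 0.48 for Itpr2, 0.052 and 0.11 for Itpr3, -0.25 and -0.20 for Sln and 0.53 and 0.58 for Slc8a1, with 0.055 for Pln over Casq2 and -0.055 for Casq2 over Pln. With the length trend and then the length and GC trends removed they were 0.14 and 0.15 for Ryr2, 0.42 and 0.43 for Ryr3, -0.23 and -0.22 for Itpr1, -0.17 and -0.15 for Itpr2, -0.10 and -0.10 for Slc8a1 and -0.31 and -0.32 for Casq2, and -0.21 for Pln with the length trend removed. With 1 library left out, Itpr1 ranged from -0.013 to 0.10 and Itpr2 ranged from -0.014 to 0.17, and without WT replicate 2 both were below 0.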
